A study of Mus musculus with 8 samples.

Results

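The gasdermin genes measured in forepaw skin of Krt16 null mice and of wild-type (WT) littermates are Gsdma, Gsdma2, Gsdma3, Gsdmc, Gsdmc2, Gsdmc3, Gsdmc4, Gsdmd and Gsdme, the last listed on the array under its older symbol Dfna5. They were taken by gene symbol from the array annotation, and the family was chosen by the null minus WT differences of these same arrays, which were known beforehand. Each of the 9 genes has 1 probe set, and no member shares its probe set with another gene. They make up 9 of the 32750 annotated probe sets that were tested together. The null group holds 4 mice with paw lesions, in which bacterial LacZ stands in place of the Krt16 coding sequence. The WT group holds 4 mice with normal paw skin. Both groups are C57Bl/6, aged 8 weeks, untreated, and made of 2 males and 2 females, with 1 Affymetrix array per mouse, so the spread between arrays is the spread between mice. Every null mouse had lesions and no WT mouse had any, so the effects of the allele and of the lesion cannot be told apart. Likewise, fewer cells of a type and less RNA per cell cannot be told apart in RNA from whole paw skin.

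Gasdermins are cytosolic proteins whose amino-terminal part, once cut free by a protease, inserts into membranes and forms pores. The pores let out cytokines of the interleukin-1 family and can end in lytic cell death, called pyroptosis. Mouse skin is a known site of the A group, and mutations of Gsdma3 cause hair loss in mice. The C group, which mice carry in several copies, is known in mouse intestine for induction by type 2 cytokines through STAT6. Krt16 encodes a keratin of paw epidermis and of stressed skin.

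Signals are the authors' values on the log2 scale, where a difference of 1 is a doubling. A probe set's level is not comparable with that of another probe set, so members are compared only between arrays. The negative controls of the 8 arrays had medians of 4.26 to 4.46, and the array medians were 4.04 to 4.09. The negative controls spread widely, and the level that all but a small share of them stayed under was 7.26 to 7.43. A signal called over or under the negative controls is over or under their median, which does not by itself show detection. Arrays have no read depth, and their number limits the precision. Krt16 itself was listed at 6.83, 6.88, 6.89 and 6.99 in null mice, against 8.48, 8.20, 7.05 and 9.66 in WT mice. All null arrays were below all WT arrays, but female WT 1, at 7.05, was close to the null values. The difference was -1.45 (SE 0.441, limma adjusted p 0.0648). With same-numbered mice as blocks its adjusted p was 0.0315. Leaving out female WT 1 gave a difference of -1.98 with an adjusted p of 0.000893. Of the 21 alternative fits, 16 left Krt16 uncalled, and the highest adjusted p was 0.457. With 1 array left out the difference ran from -1.98 to -0.94.

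Female WT 1 also stood apart from the other WT arrays in markers of other cells. Its mean over 12 neutrophil genes was 6.19, against 4.03 to 4.33 on the other WT arrays, and its mean over 10 hair follicle genes was 7.05, against 8.21 to 8.25. Without female WT 1 the null minus WT differences were 4.47 for Gsdmc2, 3.54 for Gsdmc3, 2.66 for Gsdmc, 2.08 for Gsdmc4, 0.24 for Gsdma, 0.12 for Gsdma2, 0.22 for Gsdma3 and 0.10 for Gsdmd. Among the pathway lists described further on, its omission added Nlrp3 to the called sensors and Irf1 to the called regulators, and removed Il17rb. Nlrp3 was under the negative control median on every array.

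Of the 9 members, 3 have an entry in the RefSeq promoter table used (assembly GRCm38.p6, 250 bases before to 50 bases after the gene start). These are Gsdmc3, which had a large difference between the genotypes, Gsdma3, which had a small one, and Gsdme, whose signal stayed under the negative control medians. They are shown so that the promoters of the 3 kinds of member can be set side by side. Capitals mark matches to the motifs searched on both strands.
Gsdmc3: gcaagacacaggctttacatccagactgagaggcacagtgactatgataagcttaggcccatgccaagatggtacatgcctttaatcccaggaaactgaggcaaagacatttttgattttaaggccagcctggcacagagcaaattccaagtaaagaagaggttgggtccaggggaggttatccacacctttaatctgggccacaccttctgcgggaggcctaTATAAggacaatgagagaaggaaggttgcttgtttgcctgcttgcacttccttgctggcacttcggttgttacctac
Gsdma3: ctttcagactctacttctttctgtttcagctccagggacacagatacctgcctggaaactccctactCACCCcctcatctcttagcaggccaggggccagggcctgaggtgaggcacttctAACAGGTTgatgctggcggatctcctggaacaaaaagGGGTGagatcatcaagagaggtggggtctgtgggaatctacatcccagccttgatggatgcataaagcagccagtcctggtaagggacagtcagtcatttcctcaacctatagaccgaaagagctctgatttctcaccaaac
Gsdme: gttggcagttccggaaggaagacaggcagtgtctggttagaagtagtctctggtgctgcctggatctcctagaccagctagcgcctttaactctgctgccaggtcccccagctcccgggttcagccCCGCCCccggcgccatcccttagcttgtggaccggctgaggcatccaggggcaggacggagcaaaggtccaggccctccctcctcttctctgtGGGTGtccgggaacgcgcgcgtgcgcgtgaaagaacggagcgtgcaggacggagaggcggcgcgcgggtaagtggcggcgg
The Gsdmc3 window lies at chr15:63878509-63878808 on the minus strand, that of Gsdma3 at chr11:98626099-98626398 on the plus strand, and that of Gsdme at chr6:50261720-50262019 on the minus strand. The capitals in Gsdmc3 are TATAA at -27 from the start (the start itself is 0), a match found in 24.9% of the 32851 promoters in the table. Gsdma3 holds the grainyhead motif AACNGGTT at -129, found in 2.09% of promoters, and the KLF motif CACCC at -183 and, on the opposite strand, at -92, found in 57.5%. Gsdme holds the GC box GGGCGG at -124, on the opposite strand (35.7% of promoters), and CACCC at -31, also on the opposite strand. Base composition differed between the 3 windows. Gsdme had 24 CpG dinucleotides and 65.7% G and C, against 2 CpG and 48.3% in Gsdmc3 and 2 CpG and 51.7% in Gsdma3, and the medians over all promoters were 7 CpG and 52.7%. No match was found in any of the 3 windows for the STAT motif TTCNNNGAA (8.3% of promoters) or its form with 4 bases between the arms (6.95%), for the AP-1 motif TGANTCA (7.81%), for the antioxidant response element TGACNNNGC (12.4%), for the C/EBP motif TTGCNNAA (10.8%) or for CCAAT (37.4%). The motifs do not overlap each other in these windows, and they were picked with the sequences in view.

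All 4 genes of the C group were far higher in null lesions. Gsdmc2, one of the mouse copies of human GSDMC, had signals of 8.37, 8.43, 8.36 and 7.74 in null mice, against 3.48, 3.91, 3.81 and 3.92 in WT mice. The WT values lay under the negative control median on each of the 4 arrays, and the groups were 3.82 apart at their nearest. The means were 8.22 ± 0.33 in null mice and 3.78 ± 0.21 in WT mice (SD, n = 4 each), a difference of 4.44 (SE 0.161). Counted from the WT negative control medians, the null mean was at least 14.9-fold higher.

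Gsdmc3, another copy of the same gene, had 7.88, 7.99, 7.94 and 7.55 in null mice, against 3.87, 4.47, 4.33 and 4.54 in WT mice. The WT values lay at or about the negative control medians, over them on 3 of 4 arrays. The means were 7.84 ± 0.20 in null mice and 4.30 ± 0.30 in WT mice (SD, n = 4 each), 3.54 apart (SE 0.154). With each WT array counted at the higher of its own value and its negative control median, the null mean was at least 10.8-fold higher. Gsdmc4 had 5.79, 5.84, 5.99 and 5.71 in null mice, against 3.58, 3.86, 3.86 and 3.80 in WT mice. Its WT values were under the negative control median on every array, as for Gsdmc2. Its difference was 2.06 (SE 0.0841), and the null mean was at least 2.83-fold higher than the WT floor. 

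Gsdmc differed from its 3 copies in having a signal over the negative control median on all 8 arrays. It had 10.69, 10.50, 10.72 and 10.62 in null mice, against 7.18, 8.12, 7.69 and 8.44 in WT mice. The 7.18 of male WT 1 lay under the upper level of that array's negative controls, 7.30. All values of Gsdmc4, Gsdma2, Gsdma3 and Gsdmd lay under that level on their arrays as well. The null values of Gsdmc were close together, with an SD of 0.10, while its WT values spread with an SD of 0.55. The means of 10.63 in null mice and 7.86 in WT mice were 2.78 apart (SE 0.216), a 6.86-fold difference. All 4 differences were above 1, also from the WT floor, where 0.62% of all probe sets had a measured difference above 1. These are the values that led to the choice of the family, so no test is read from them.

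**Figure D1:**
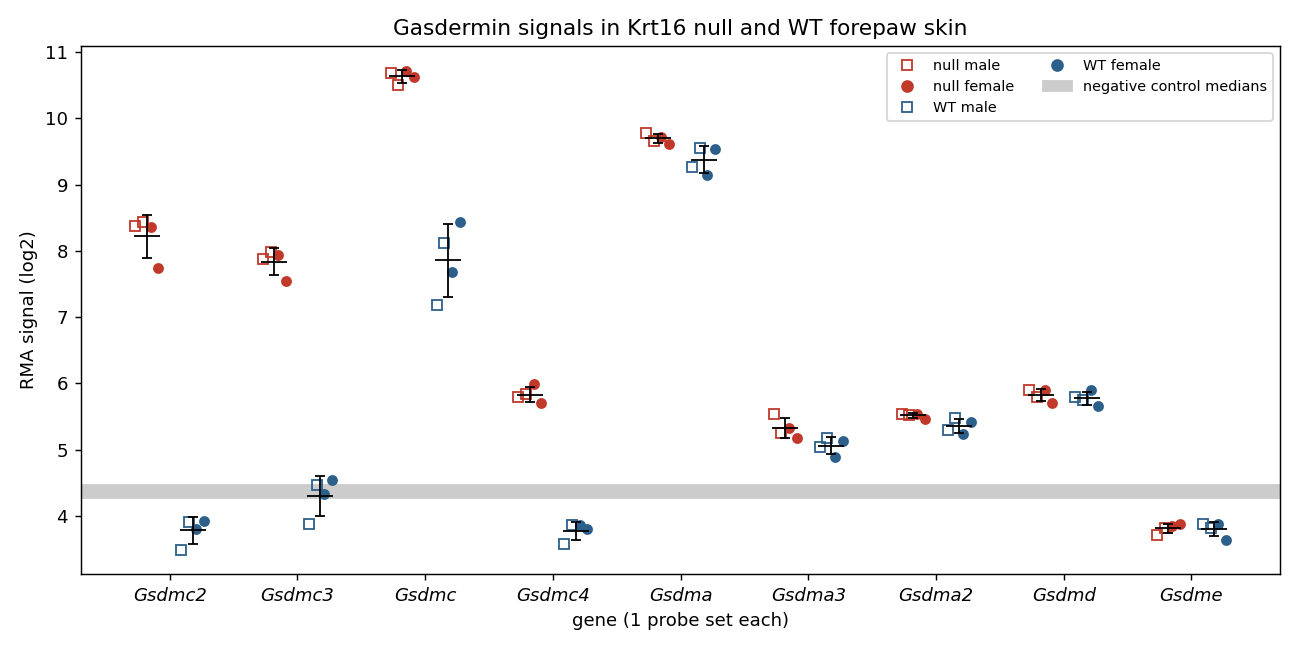
Signal of each gasdermin gene (log2, y axis) on the 4 null arrays, in red and left, and the 4 WT arrays, in blue and right, with squares for males and discs for females. Crossbars are means with the SD and the grey band spans the negative control medians of 4.26 to 4.46; the 4 Gsdmc genes are apart between the genotypes, and the other 5 lie close together.

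The A group differed far less between the genotypes. Gsdma, an epidermal gasdermin whose human protein is cut by a streptococcal protease, had 9.79, 9.67, 9.72 and 9.62 in null mice, against 9.27, 9.56, 9.14 and 9.54 in WT mice. All null values were over the WT values, by 0.06 at the nearest. The difference was 0.32 (SE 0.0983), or 1.25-fold. Gsdma3 had 5.53, 5.25, 5.33 and 5.18 in null mice, against 5.04, 5.17, 4.89 and 5.14 in WT mice. Its null values were also all over the WT values, by 0.01 at the nearest, and its difference was 0.27 (SE 0.0862). Gsdma2 had 5.53, 5.52, 5.53 and 5.47 in null mice, against 5.30, 5.48, 5.23 and 5.41 in WT mice. These groups overlapped, with a difference of 0.16 (SE 0.0652).

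Gsdmd, the pore-forming gasdermin of classical inflammasome signalling, had 5.90, 5.79, 5.91 and 5.70 in null mice, against 5.79, 5.74, 5.90 and 5.66 in WT mice. The groups overlapped and differed by 0.05 (SE 0.0739). Gsdme, a gasdermin whose older symbol stands for a hereditary deafness, had 3.71, 3.82, 3.84 and 3.87 in null mice, against 3.88, 3.82, 3.88 and 3.64 in WT mice. All 8 values were under the negative control medians, and the difference was 0.01 (SE 0.0716), so no level of Gsdme could be read from this probe set. Pjvk, a gasdermin-like gene of hearing outside the 9 members, averaged 2.89 ± 0.05 in null mice and 2.91 ± 0.06 in WT mice (SD, n = 4 each), also under the negative controls on all 8 arrays.

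By the rule of an adjusted p under 0.05 across all probe sets, 4 of the 9 members were called higher and 0 lower, where 12.7% of all probe sets were called, 6.91% higher and 5.74% lower. The null arrays were all above the WT arrays in 6 of the 9 and all below in 0, against 10.1% and 8.6% of all probe sets, or 18.7% without overlap in either direction. Nothing is read from these counts, since this contrast chose the family. The 4 called members were the Gsdmc genes, and Gsdma was called as well when dim probe sets were filtered out or when female WT 2 was left out, with a difference of 0.40 without that array.

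Skeletal muscle RNA moved with the genotype. Beside the counts of called marker genes given here, 6.91% of all probe sets were called higher and 5.74% lower on all 8 arrays. Nothing is read from a count of only 1 or 2 called genes in a list. Of 12 muscle genes, 0 were called higher and 10 lower, and their mean signal was 8.48 to 9.10 in null mice, against 9.29 to 10.1 in WT mice, with no gene under the negative controls. Sex and that mean together accounted for 73.5% of the genotype term. With the muscle mean as a covariate the differences were 2.26 for Gsdmc, 4.33 for Gsdmc2, 3.32 for Gsdmc3 and 1.99 for Gsdmc4, while that of Gsdma was 0.03, of Gsdma2 -0.02, of Gsdma3 0.18 and of Gsdmd 0.24. Sebaceous gland genes also moved, with 0 of 11 higher and 7 lower (mean 6.29 to 6.43 in null mice, against 6.58 to 7.09 in WT mice, with Mogat1 under the negative controls). Of 12 neutrophil genes 3 were higher, S100a8, S100a9 and Cxcr2, of which the first and second are also made by keratinocytes, and 0 were lower. The neutrophil mean was 5.45 to 5.86 in null mice, against 4.03 to 6.19 in WT mice, and no neutrophil gene was under the negative controls on all arrays. Of the 8 epidermal genes that check the tissue label, 1 was higher (Ivl) and 2 lower (Krt9 and Lor), and the mean was 11.1 to 11.2 in null mice, against 11.3 to 11.5 in WT mice. Krt9 alone differed by -2.47, and without it the mean was 11.4 to 11.5 in null mice, against 11.3 to 11.6 in WT mice. Of 10 hair follicle genes 0 were higher and 1 lower (mean 7.12 to 7.61 in null mice, against 7.05 to 8.25 in WT mice), and of 11 macrophage genes 0 were higher and 2 lower (5.91 to 6.67 in null mice, against 6.46 to 7.09 in WT mice). None of 6 mast cell genes was called (5.30 to 6.11 in null mice, against 6.03 to 6.41 in WT mice, Fcer1a under the negative controls), and of 6 T and NK cell genes 1 was higher, Cd3g, which with Cd4, Cd8a and Ncr1 stayed under the negative controls (3.93 to 4.12 in null mice, against 3.82 to 3.98 in WT mice). Without female WT 1, 10 of 10 hair follicle genes were lower, 5 neutrophil genes higher, 11 muscle genes and 1 macrophage gene lower, and 0 T and NK genes higher. The part of these other cell types in the gasdermin values was not tested.

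A pair of contrasts did not choose the family, and both are read here as tests. No member was called between females and males. The female minus male difference was largest for Gsdmc, at 0.25 (SE 0.216, limma adjusted p 0.974), and ran from 0.025 without male WT 1 to 0.40 without male WT 2. The adjusted p of the 9 members ran from 0.962 to 1.0. Over all probe sets 5 were called for sex (0.0153%), and 1659 had an unadjusted p under 0.05. The null minus WT difference was also compared between the sexes. It was 4.18 in females and 4.70 in males for Gsdmc2, 3.31 and 3.76 for Gsdmc3, 2.61 and 2.95 for Gsdmc, and 2.02 and 2.09 for Gsdmc4. The largest difference between the sexes was -0.52 for Gsdmc2 (SE 0.29, adjusted p 0.974, unadjusted p 0.113). That of Gsdmc2 ran from -0.83 without female null 1 to -0.21 without female null 2, the array with the lowest null signal. No member was called (adjusted p 0.974 to 0.999), against 2 of all probe sets (0.00611%) and 1375 with an unadjusted p under 0.05. A p over the threshold does not show that the sexes were alike.

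The spread within a genotype was compared between members. After each genotype's mean was subtracted, r over the 8 arrays was 0.734 to 0.956 in the 3 pairs of Gsdma genes, 0.488 to 0.902 in the 6 pairs of Gsdmc genes and 0.096 to 0.743 in the 12 pairs across both groups, so the ranges overlapped. Gsdma and Gsdma2 correlated at 0.956, Gsdma and Gsdma3 at 0.83, Gsdmc2 and Gsdmc3 at 0.902, Gsdmc3 and Gsdmc4 at 0.819, Gsdmc and Gsdmc3 at 0.776, Gsdmc and Gsdmc4 at 0.555, and Gsdmc and Gsdmc2 at 0.488. Across the groups Gsdma and Gsdmc correlated at 0.743. Gsdme, under the negative controls on all 8 arrays, was left out here. Gsdmc2 and Gsdmc4 were under them on all 4 WT arrays, and Gsdmc3 on 1. The r values, WT order and WT mean of the Gsdmc genes thus rest in part on floor values. These are descriptions of 8 arrays that share 2 subtracted means, whose values also carry the array's normalization and tissue make-up. Among WT mice male WT 1 was lowest for all 4 Gsdmc genes, and female WT 1 was lowest for all 3 Gsdma genes. Among null mice female null 2 was lowest for the 3 Gsdma genes, for Gsdmc2, Gsdmc3 and Gsdmc4, and for Gsdmd. As a mean signal, the 4 Gsdmc genes stood at 8.18, 8.19, 8.25 and 7.91 in null mice, against 4.53, 5.09, 4.92 and 5.18 in WT mice. The same mean of the 3 Gsdma genes was 6.95, 6.81, 6.86 and 6.76 in null mice, against 6.54, 6.74, 6.42 and 6.70 in WT mice. Against the deviations of the muscle mean (n = 8), r was -0.616 for Gsdma, -0.674 for Gsdma2, -0.152 for Gsdma3, -0.5 for Gsdmc, -0.117 for Gsdmc2, -0.302 for Gsdmc3, -0.219 for Gsdmc4 and 0.658 for Gsdmd, so the 2 groups of genes did not separate by it.

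**Figure D2:**
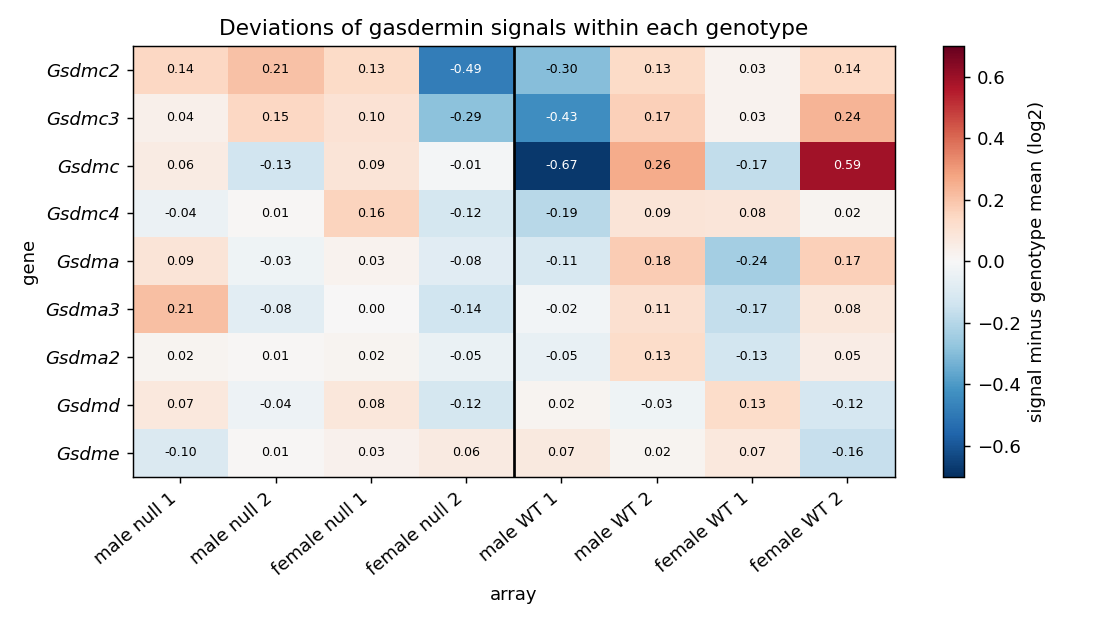
Signal of each member minus the mean of its genotype (log2, colour and printed values), by gene and array, with null arrays left of the line and WT arrays right of it. The blue cells of female null 2 run through Gsdmc2 at -0.49 and Gsdmc3 at -0.29, and Gsdmc spans -0.67 in male WT 1 to 0.59 in female WT 2.

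The genes lying among and beside the members were compared as well, because these were not used to pick the family. On chromosome 15 the gene table (GRCm38.p6, used here for order only) gives Gm5473, 4930449C09Rik, Gsdmc, 1700065I16Rik, Gsdmc2, Gsdmcl1, Gsdmc3, Gsdmcl2, Gsdmc4, Gsdmcl-ps and Cyrib. None of the 3 transcripts between the Gsdmc genes was called, with differences from -0.02 to 0.09 beside 2.06 to 4.44 for the Gsdmc genes. Gsdmcl1, a transcribed Gsdmc-like pseudogene, averaged 4.82 ± 0.13 in null mice and 4.76 ± 0.09 in WT mice (SD, n = 4 each), 0.06 apart (SE 0.0763, limma adjusted p 0.695). The other pseudogenes of that kind, Gsdmcl2 at -0.02 (adjusted p 0.902) and Gsdmcl-ps at -0.00 (adjusted p 0.996), were not called either, and 1700065I16Rik differed by 0.09 (SE 0.101, adjusted p 0.64). Probe sets of near-identical copies can pick up each other's RNA. Whether the Gsdmc genes do so was not tested, because the probe sequences were not used here, and so the difference of any 1 Gsdmc gene is less certain than that of the group.

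On the outer side of Gsdmc4, Cyrib, a regulator of the actin cytoskeleton, rose by 0.43 (SE 0.0599, limma adjusted p 0.00302). It averaged 6.84 ± 0.07 in null mice and 6.41 ± 0.07 in WT mice (SD, n = 4 each), with all null arrays above all WT arrays. With the muscle covariate Cyrib was 0.48 higher at an adjusted p of 0.108. On the other side Gm5473 differed by 0.14 (adjusted p 0.123) and 4930449C09Rik by -0.07 (adjusted p 0.67). The Gsdma genes lie on chromosome 11 in the order Lrrc3c, Srsf3-ps, Gsdma3, Gsdma2, Gsdma, Psmd3 and Csf3. Psmd3, a proteasome subunit, rose by 0.26 (SE 0.0538, adjusted p 0.0149), averaging 7.67 ± 0.11 in null mice and 7.41 ± 0.03 in WT mice (SD, n = 4 each). Its call was lost with the muscle covariate (0.29, adjusted p 0.259) and without male null 2, male WT 1 or female null 1 (0.23 to 0.26, adjusted p 0.0511 to 0.0552). Lrrc3c, Srsf3-ps and Csf3 were not called, at 0.05, 0.21 and -0.03. Beside Gsdmd, on chromosome 15 as well, Gm23747, Gm9568, Mroh6 and Naprt differed by -0.12 to 0.17. Beside Gsdme on chromosome 6, Npy, Mpp6, Osbpl3 and Gm26289 differed by -0.27 to 0.09. Beside Pjvk on chromosome 2, Osbpl6, Prkra, Fkbp7 and Plekha3 differed by -0.34 to -0.12, and Fkbp7, at an adjusted p of 0.0502, had 0.0441 with mice paired by number. In all, 2 of the 23 neighbours were called, beside 12.7% of all probe sets.

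**Figure D3:**
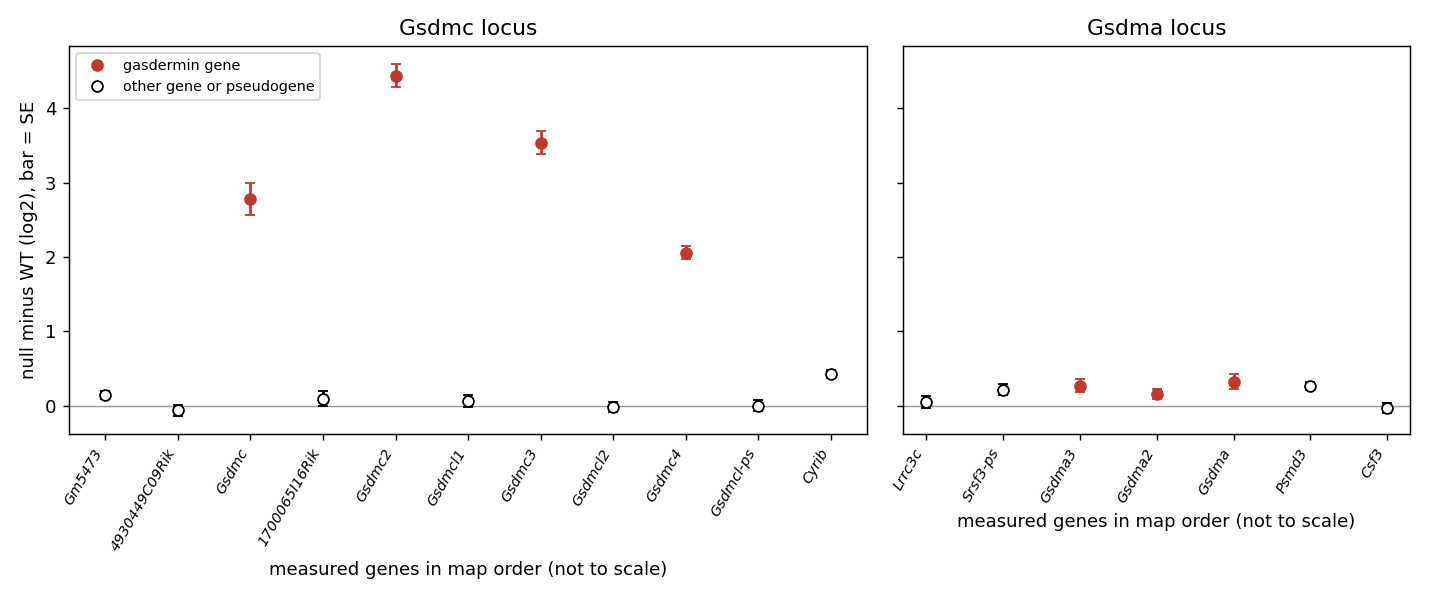
Null minus WT difference (log2, y axis) of the measured genes in map order at the Gsdmc locus and the Gsdma locus, with bars of 1 SE, filled red for gasdermins and open for other genes and pseudogenes. The 4 Gsdmc genes lie at 2.06 to 4.44 while the 3 transcripts between them lie between -0.02 and 0.09.

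The genes most like each member over the 8 arrays were found by Pearson's r of the log2 values, which for the Gsdmc genes mostly follows the genotype. Gsdmc2 was nearest to Sprr2i (r = 0.999), Rbp2 (0.998) and Sprr2f (0.997). Sprr2i and Sprr2f encode small proline-rich proteins of the cornified envelope, and Rbp2 encodes a cellular retinol carrier. Sprr2f averaged 8.55 in null mice and 3.65 in WT mice, and Sprr2i averaged 7.56 in null mice and 3.92 in WT mice. Both WT means were under the negative control medians, so the size of these differences is not exact. Gsdmc3 was nearest to Ankrd13a (0.997), Sprr2i and Rbp2, and Gsdmc4 to Ankrd13a, Sprr2f and Rnf11 (each 0.996). Gsdmc was nearest to Gm11675 (0.997), Plpbp (0.99) and Pglyrp3 (0.989), the last a peptidoglycan recognition protein of epithelia that averaged 9.01 in null mice and 7.04 in WT mice. Gsdma was nearest to Ptpn2 (0.991), Gsdma2 to Wsb2-ps (0.986), Gsdma3 to Ptma-ps2 (0.99) and Gsdmd to Cd79b (0.991). With genotype means removed, the nearest genes were others for these members but Gsdmd. Gsdme was left out, its values being under the negative controls. The WT values of Gsdmc2 and Gsdmc4 were under them as well, so their r rests in part on floor values. The nearest genes then were Gm25142 for Gsdmc2 (0.985), Per1 for Gsdmc3 (0.984), Dock1 for Gsdmc (0.981), Olfr832 for Gsdmc4 (0.982), Gm15026 for Gsdma (0.992), E430018J23Rik for Gsdma2 (0.995), Gm12058 for Gsdma3 (0.994) and Cd79b for Gsdmd (0.991). Cd79b averaged 4.22 in null mice and 4.16 in WT mice, and Olfr832 averaged 2.43 and 2.33. These means were under the negative control medians, so the r values with Cd79b and Olfr832 rest in part on floor values too. Each of the nearest genes is the top of a ranking over all single-gene probe sets, so it is given as a description with no p.

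Proteases that cut gasdermins, or belong to the same families, were taken as a list. Of 12 measured, 4 rose and 0 fell, where 6.91% of all probe sets were called higher and 5.74% lower, and the median difference was 0.10, against 0.01 over all probe sets. Casp14, a caspase of cornifying keratinocytes that takes part in filaggrin processing and is not established as a gasdermin protease, averaged 10.72 ± 0.03 in null mice and 10.20 ± 0.23 in WT mice (SD, n = 4 each), a rise of 0.52 (SE 0.105, limma adjusted p 0.014). Ctsl, a lysosomal cathepsin, rose by 0.45 (SE 0.0649, adjusted p 0.00343). The other risen members were Casp6, an apoptotic caspase, at 0.40 (adjusted p 0.00519) and Casp4, mouse caspase-11, which senses cytosolic lipopolysaccharide and cuts GSDMD, at 0.32 (adjusted p 0.0242). Casp4 was not called without male null 2, male WT 1 or female null 1 (0.27 to 0.29, adjusted p 0.0708 to 0.0851). Casp1, the inflammasome caspase, differed by -0.10 (adjusted p 0.482) and Casp8, which cuts human GSDMC, by -0.04 (adjusted p 0.807). Gzma, Gzmb and Ctsg were under the negative controls on all arrays. With the muscle covariate 0 proteases were called, and Casp14, for example, stood at 0.19 (adjusted p 0.731).

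Among 18 inflammasome sensors and adaptors 2 rose and 0 fell, with a median of 0.03 (all probe sets: 6.91% higher, 5.74% lower, median 0.01). Both are genes of necroptosis, a form of lytic death that does not need gasdermins. Mlkl, which encodes its pore-forming effector, had 5.80, 6.17, 5.95 and 5.94 in null mice, against 5.05, 5.15, 5.31 and 5.14 in WT mice. All null values lay over the WT values, with a rise of 0.81 (SE 0.0894, limma adjusted p 0.000977). Ripk3, the kinase that activates it, rose by 0.37 (SE 0.0774, adjusted p 0.0154), a call lost without male WT 1 (0.33, adjusted p 0.0531) or female null 1 (0.36, adjusted p 0.0563). Pycard, the adaptor between sensors and Casp1, differed by -0.04 (adjusted p 0.842). Nlrp3 and 7 other sensors were under the negative controls on all arrays. With the muscle covariate 0 were called, and Mlkl stood at 0.81 with an adjusted p of 0.0886.

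Cytokines that leave cells through gasdermin pores or on lysis were taken as a list together with Il1rn, Il18bp and Ninj1, which are not such cytokines. Of these 7 measured genes 3 rose and 0 fell, with a median of 0.37, against 6.91% and 5.74% of all probe sets and a median of 0.01. Il33, an alarm cytokine of keratinocytes that acts on type 2 immune cells, had 8.71, 9.12, 8.94 and 9.05 in null mice, against 6.01, 5.47, 6.25 and 5.84 in WT mice. The groups lay far apart, with a rise of 3.06 (SE 0.146, limma adjusted p 6.27e-06), which was 3.38 with the muscle covariate (adjusted p 0.0011). Il1b had 5.59, 6.34, 6.68 and 4.73 in null mice, against 3.49, 3.61, 3.92 and 3.42 in WT mice. Its WT values were under the negative controls, so the size of the difference is not exact, the null values spread with an SD of 0.87, and the rise was 2.22 (SE 0.368, adjusted p 0.00619; 0.248 with the muscle covariate). Il1rn, the receptor antagonist of interleukin-1, rose by 0.73 (SE 0.0686, adjusted p 0.000391; 0.0699 with the muscle covariate). Il1a at 0.37 (adjusted p 0.0992), Il18 at 0.11 (0.347) and Ninj1, which ruptures the membrane after pore formation, at -0.04 (0.809) were not called, and Il1a had an adjusted p of 0.0153 with mice paired by number. Il18bp, the binding protein of interleukin-18, differed by -0.22 (limma adjusted p 0.067) and was not called. All its null arrays were below all its WT arrays. The 3 Il36 cytokines, their antagonist Il36rn and Hmgb1 were not analysed here.

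The list for the type 2 cytokine pathway to STAT6 was for the most part not called, with 3 of 14 higher, 1 lower and a median of 0.04 (all probe sets: 6.91%, 5.74% and 0.01). It also holds Il33, already counted among the cytokines, and Il17rb. Il2rg, Jak3 and Il1rl1 were listed but not analysed here. Besides Il33, Il4ra, the receptor chain shared by interleukins 4 and 13, had 8.63, 8.86, 8.68 and 8.43 in null mice, against 7.32, 7.39, 7.53 and 7.50 in WT mice. It rose by 1.21 with no overlap (SE 0.0946, limma adjusted p 0.000134), and by 1.21 with the muscle covariate (adjusted p 0.0291). Il13ra2, a decoy receptor of interleukin 13, rose by 0.77 (SE 0.179, adjusted p 0.0241), but was over the negative control median on only 2 of 4 null arrays and on 0 of 4 WT arrays, so the size is not exact. Its call was lost without male WT 1, male WT 2 or female null 1 (0.67 to 0.78, adjusted p 0.062 to 0.0796), and equally under the muscle covariate (0.79, adjusted p 0.39). Il17rb, the receptor of interleukin 25, fell by 0.27 (SE 0.0685, adjusted p 0.0334), a call lost on leaving out any array but male WT 1 or female null 2 (-0.27 to -0.23, adjusted p 0.0571 to 0.104), over all non-control probe sets (adjusted p 0.06) and with the muscle covariate (-0.27, adjusted p 0.457). The ligand Il13 differed by 0.17 (adjusted p 0.33), Il4 and Tslp were under the negative controls on all arrays, and Stat6 itself differed by 0.05 (adjusted p 0.614).

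The membrane repair genes of the ESCRT-III complex, which sheds gasdermin pores, had 2 of 14 higher, 0 lower and a median of 0.03 (all probe sets: 6.91%, 5.74% and 0.01). Chmp1b rose by 0.32 (SE 0.0692, limma adjusted p 0.0173) and lost its call without male null 2, male WT 2 or female null 1 (0.29 to 0.32, adjusted p 0.0543 to 0.0636). Chmp4c rose by 0.27 (SE 0.063, adjusted p 0.0239) and lost its call without any 1 of the null arrays or without male WT 1 (0.24 to 0.28, adjusted p 0.0557 to 0.0784), or with median centring (adjusted p 0.0545). Of 12 regulators tied to gasdermins in the literature, 0 were higher and 1 lower, with a median of 0.08 (all probe sets as above). Zdhhc9, a palmitoyl transferase known to act on GSDMD, fell by 0.30 (SE 0.0742, adjusted p 0.0306). That call was lost without male WT 2 or female WT 2 or any 1 of the null arrays (-0.31 to -0.24, adjusted p 0.0567 to 0.101), or with median centring (adjusted p 0.0623). Irf2, an activator of Gsdmd transcription, differed by 0.13 (adjusted p 0.337). With the muscle covariate no gene of these 2 lists was called.

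**Figure D4:**
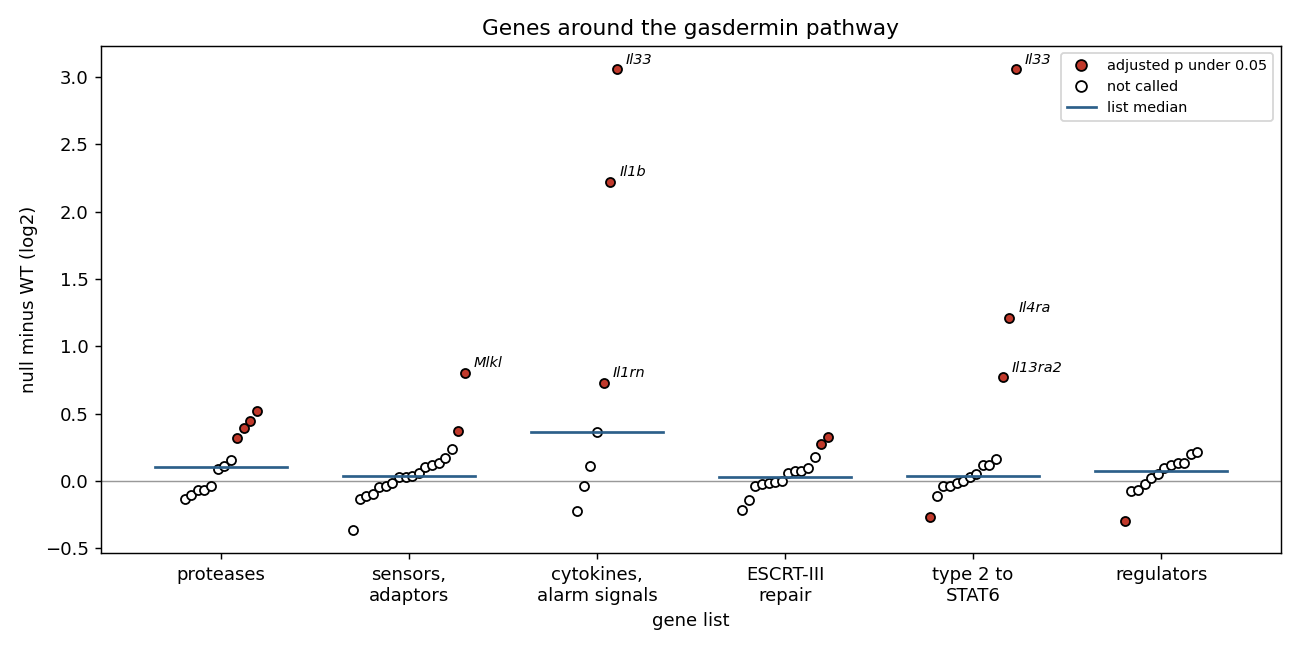
Null minus WT difference (log2, y axis) of each measured gene in 6 lists around the gasdermins, filled where the limma adjusted p was under 0.05, with the list median as a line. Il33 at 3.06, Il1b at 2.22 and Il4ra at 1.21 stand above medians of 0.03 to 0.37.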

How the data were processed

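Total RNA from forepaw skin was extracted with Trizol, labelled with biotin (WT PLUS kit, with priming along the whole transcript) and hybridised to Affymetrix arrays, per the labels' protocols. The authors deposited log2 signals, 1 for each array and probe set, for which the submitters' processing notes name Partek and RMA. RMA corrects the background, brings the arrays to 1 distribution and summarises the probes of a set, and it compresses large differences and pulls dim signals together. Versions and genome build are not given in the sources used. A range of 1.36 to 13.6 in the values was checked against that scale.

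Of 72688 probe sets 6732 controls were left out, and the 32750 of the other 65956 that the array annotation lists with a gene were tested, 31258 with 1 gene and 1492 with several. Symbols were updated through gene IDs in a RefSeq table (GRCm38.p6). Of the controls, 5222 are negative controls.

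Differences were fitted with limma 3.58.1 in R 4.3.3 (lmFit and eBayes with an intensity trend) with terms for genotype and sex and 5 residual degrees of freedom, and probe sets were called where p, adjusted over all 32750 by Benjamini-Hochberg, was under 0.05. For the difference of the genotype effect between the sexes, the means of the 4 sex and genotype groups were fitted, leaving 4 residual degrees of freedom. The scripts were tested on simulated data. Tables and plots were made with Python 3.11.15, numpy 2.4.6, pandas 2.3.3 and matplotlib 3.10.9. A bound ("at least") sets the null mean against the mean of, for each WT array, the higher of its own value and its negative control median.

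The members, the 6 pathway lists and the 8 cell type lists were chosen with earlier results of these data known. Named are all members, Krt16, Pjvk, the 2 measured genes on each side of each locus and those between members, the 2 largest rises and falls among called genes of each pathway list, and the 3 genes with the highest correlation to each member, of which the text gives the first alone for the Gsdma genes and Gsdmd and after removal of the genotype means, and none for Gsdme. Outside that rule Casp1, Casp4, Casp6, Casp8, Il1a, Il18, Il18bp, Il1rn, Il4, Il13, Il13ra2, Irf2, Ninj1, Irf1, Nlrp3, Pycard, Stat6, Tslp and the called cell type markers were named after their values were seen.

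Mice are numbered in the labels within sex and genotype. With group means removed, the values of same-numbered null and WT arrays correlated across probe sets at 0.307 in males and 0.103 in females, 1 value for both pairs of a sex. As both exceed 0.1 the numbers were treated as pairs in an alternative fit with the pair as a block, although the labels do not state a shared litter or day. The remaining alternatives left out the sex term, the trend or each array in turn, used 1 sex alone, 1 probe set per gene or all non-control probe sets, filtered dim probe sets, centred medians, repeated the quantile normalization, or added array weights, a robust prior or the muscle list mean. List counts without female WT 1 were added after seeing the data.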

Additional observations from a re-analysis of the deposited data

Results flagged for a closer look

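A single array stood apart from the other 3 of its genotype, by a gap over 0.829 of the group's range, in 6 of 68 groups of 4 arrays. The 68 are both genotypes of 34 genes, and chance alone gives about 1 in 20. Among the members, Gsdmc2 in female null 2 was at 7.74, with the other null arrays at 8.36 to 8.43, and Gsdma2 in female null 2 was at 5.47, with the others at 5.52 to 5.53. Pjvk in female WT 1 was at 2.83 (others 2.93 to 2.95), Gm23747 in female WT 2 at 2.86 (others 2.92 to 2.93), Gm26289 in male null 1 at 4.07 (others 3.88 to 3.91) and Prkra in male WT 1 at 5.32 (others 5.54 to 5.57).

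For Pjvk and 4 transcripts of the Gsdmc locus every null array lay above the WT arrays in females and below them in males. Each such comparison sets 2 arrays against 2, and its share over all probe sets was not counted. Pjvk and 4930449C09Rik were under the negative control median on every array. Gsdmcl-ps was over it on only 1 null array and 1 WT array. Nothing is therefore read from this pattern. The female minus male difference of the effect was 0.14 for Pjvk, 0.34 for 4930449C09Rik, 0.28 for Gsdmcl1, 0.27 for Gsdmcl2 and 0.29 for Gsdmcl-ps, and in limma's interaction test none was called (adjusted p 0.974 each). The 4 Gsdmc genes did not share that pattern, being higher in null mice of both sexes.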

How the results depend on the processing

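The 4 Gsdmc genes were called higher under all 21 alternatives, and 4 or 5 members were called higher and 0 lower, which describes the contrast that chose the family and supports nothing about it. Over all probe sets the counts moved more. Those called, 2263 higher and 1881 lower, became 193 and 69 with the muscle covariate, 843 and 393 in males only, 216 and 111 in females only, and 1239 to 2438 and 832 to 1925 with 1 array left out (1239 and 832 without male null 2, 1282 and 855 without female null 1, 1377 and 1093 without male WT 1, 1123 lower without female null 2). The balance of higher and lower calls was 1997 and 2090 after repeated quantile normalization, and 2677 and 2048 with the replicate block, which among single genes made Krt16, Fkbp7 and Il1a calls and ended none. The 5 probe sets called for sex became 8 over all non-control probe sets (5 to 7 with 1 array left out). The 2 called for the difference between the sexes became 1 with the dim filter, 1 with the replicate block and 1 to 32 with 1 array left out, 32 without female WT 2. The sex term could not be estimated with the replicate block, as pairs lie within a sex, and genes dim on all arrays have no value under the dim filter.

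Of 1438 alternatives for 72 single-gene values, 1277 were counted as unchanged, 73 lost a call, 16 gained one and 68 changed sign. Another 4 moved by more than the replicate SD (Gsdma, Gsdma2, Gsdmc and Gsdmd with the muscle covariate, Gsdma2 to -0.015 and so below 0). The members' null minus WT differences counted as unchanged if they moved by no more than that SD. Their smaller changes of sign, and the calls gained by Gsdma, are thus not counted. All 20 alternatives of Gsdme count as unchanged. Its difference of 0.0081 was -0.083 in males only and -0.057 to 0.049 with 1 array left out. For the other values, unchanged means the same direction and side of the threshold. Each counted change of sign concerned a difference that was not called, and the cause was not tested. With the muscle covariate the values were 0.0032 for the sex difference of Gsdmd, -0.15 (Gsdma), -0.043 (Gsdma2) and 0.042 (Gsdmd) for the difference between the sexes, and 0.0061 for Csf3, 0.011 for Naprt, 0.26 for Npy, 0.15 for Mpp6 and 0.046 for Fkbp7. With median centring the difference between the sexes was -0.045 for Gsdma and -0.013 for Gsdma2. The sex difference was 0.0042 for Gsdmd after repeated quantile normalization and -0.032 for Gsdmc3 with array weights. In females only the values were 0.055 for Pjvk, 0.11 for 4930449C09Rik, 0.12 for Gsdmcl2, 0.15 for Gsdmcl-ps, -0.012 for Gm9568 and 0.063 for Pycard. In males only they were -0.093 for 1700065I16Rik, -0.079 for Gsdmcl1 and 0.055 for Mpp6. With 1 array left out, the sex difference ran from -0.14 to 0.018 for Gsdma, -0.23 to 0.082 for Gsdmc2, -0.13 to 0.16 for Gsdmc3, -0.067 to 0.033 for Gsdmd and -0.039 to 0.066 for Gsdme. The difference between the sexes ran from -0.19 to 0.21 for Gsdma, -0.045 to 0.14 for Gsdma2, -0.19 to 0.099 for Gsdma3, -0.81 to 0.13 for Gsdmc, -0.21 to 0.073 for Gsdmc4 and -0.17 to 0.069 for Gsdmd. The null minus WT difference ran from -0.049 to 0.0067 for Pjvk, -0.012 to 0.10 for Lrrc3c, -0.065 to 0.00089 for Csf3, -0.0078 to 0.17 for 1700065I16Rik, -0.0093 to 0.093 for Gsdmcl1, -0.053 to 0.012 for Gsdmcl2, -0.057 to 0.038 for Gsdmcl-ps, -0.092 to 0.0072 for Mpp6 and -0.12 to 0.026 for Pycard. Signals under the negative controls, as for Gsdme and Pjvk, limit what these arrays can show.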
